A study of Canis lupus familiaris with 45 samples.

Results

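Left ventricular gene expression after the second week of rapid cardiac pacing was compared with that after the first week, in different dogs. The members were chosen by their labels alone: the arrays named Week-2 (3 dogs, 9 arrays) and those named Week-1 (3 dogs, 9 arrays), 18 of the 45 arrays of the series. The series followed the canine tachypacing model of heart failure, in 5 groups of 3 dogs, and tissue through the whole thickness of the left ventricular wall was frozen at the end of each pacing period. Each dog gave 3 separate RNA isolations, and every isolation was hybridised to its own single-colour oligonucleotide array. All dogs were male and matched for age, and no breed or strain was given in the sources used here. Week-1 and Week-2 dogs carried a pacemaker lead attached to the outer surface of the right ventricle through the left chest wall, and pacing at 240 beats per minute began 1 to 2 days after that surgery and ran for 1 or 2 weeks. The other groups were unpaced dogs (Day-0), dogs paced for 3 days (Day-3) and dogs in end-stage failure after 3 to 4 weeks of the same pacing (End-stage). Whether the unpaced dogs had the surgery is not given in the sources used here. Each dog gave 1 time point, so a difference between the weeks is a difference between dogs and not a change followed within an animal. The labels name no drug and no genetic change in any group.

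Sustained rapid pacing weakens and dilates the ventricle over a few weeks, and the failing muscle is known for a fall in energy metabolism and calcium cycling genes and for growth of the extracellular matrix. Immediate early genes, such as FOS and JUNB, encode short-lived transcription factors and signalling inhibitors whose RNA appears within minutes of a stimulus and is soon degraded. Endothelial cells, fibroblasts, immune cells and fat cells share the ventricular wall with the heart muscle cells and contribute their own RNA to a bulk tissue sample.

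The deposited signals were on a linear scale and were analysed as log2 signal, averaged over the 3 arrays of a dog. The median array signal and the control ratios below are also given as means over the 3 arrays of a dog. The median signal lay between 35.7 and 39.7 in the Week-1 dogs and between 39.1 and 43.1 in the Week-2 dogs. Single arrays overlapped widely, from 34.3 to 46.8 at Week-1 and from 33.3 to 47.3 at Week-2. The ratio of 3′ to 5′ probe sets of GAPDH, a measure of RNA integrity, lay between 0.914 and 0.966 at Week-1 and between 0.89 and 0.96 at Week-2. That of actin lay between 0.123 and 0.25 at Week-1 and between 0.175 and 0.267 at Week-2. These actin ratios are far below 1, so their use as such a measure is uncertain here. Heart muscle genes were bright in all 6 dogs: cardiac troponin T (TNNT2) had a log2 signal between 12.98 and 13.54 at Week-1 and between 12.99 and 13.46 at Week-2. Over all probe sets tested and against all 45 arrays, 39 of the 45 were closest to another array of their own dog. A second match used 200 probe sets and compared each array only with arrays of dogs of its own number. In that match, 15 of the 18 Week-1 and Week-2 arrays were most like another array of their own dog. The other 3 were the arrays of Week-1 dog 1, and each of them was most like an array of End-stage dog 1, with correlations of 0.758, 0.771 and 0.944. The arrays of that dog did not agree among themselves: its isolation 2 correlated at best at -0.294 with its own dog and at 0.771 with isolation 1 of End-stage dog 1, which in turn reached -0.368 with its own dog. Values without Week-1 dog 1 are given for some of the genes and lists below and not for all that it moved. The reason for the likeness was not tested.

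No probe set passed the test. Of 14302 probe sets tested, 0 had a Benjamini-Hochberg adjusted p under 0.05 in the limma fit, and the smallest adjusted p was 0.692. At an unadjusted p under 0.05 there were 826 probe sets, 5.78% of those tested, of which 446 (3.12%) were higher and 380 (2.66%) were lower at Week-2. With each array centred on its median signal instead, the split at that p turned to 188 higher and 861 lower, and the median difference of all probe sets moved from 0.0172 to -0.106. A small difference shared by many genes therefore depends on the scaling. The 3 Week-2 dogs did not overlap the 3 Week-1 dogs at 1602 probe sets, 11.2% of those tested, of which 859 (6.01%) were higher and 743 (5.2%) were lower at Week-2. With 3 dogs against 3 an exact permutation test of a single gene cannot go below a two-sided p of 0.10. The precision was nevertheless enough to bound large changes. The median standard error of a difference was 0.219 on the log2 scale, and at 80.0% of probe sets the 95% confidence interval lay wholly within a 2-fold change either way. At 42.2% it lay within a 1.5-fold change. The genes named below are therefore described by their values, and the adjusted p of each in limma was 0.692 or above.

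**Figure D1:**
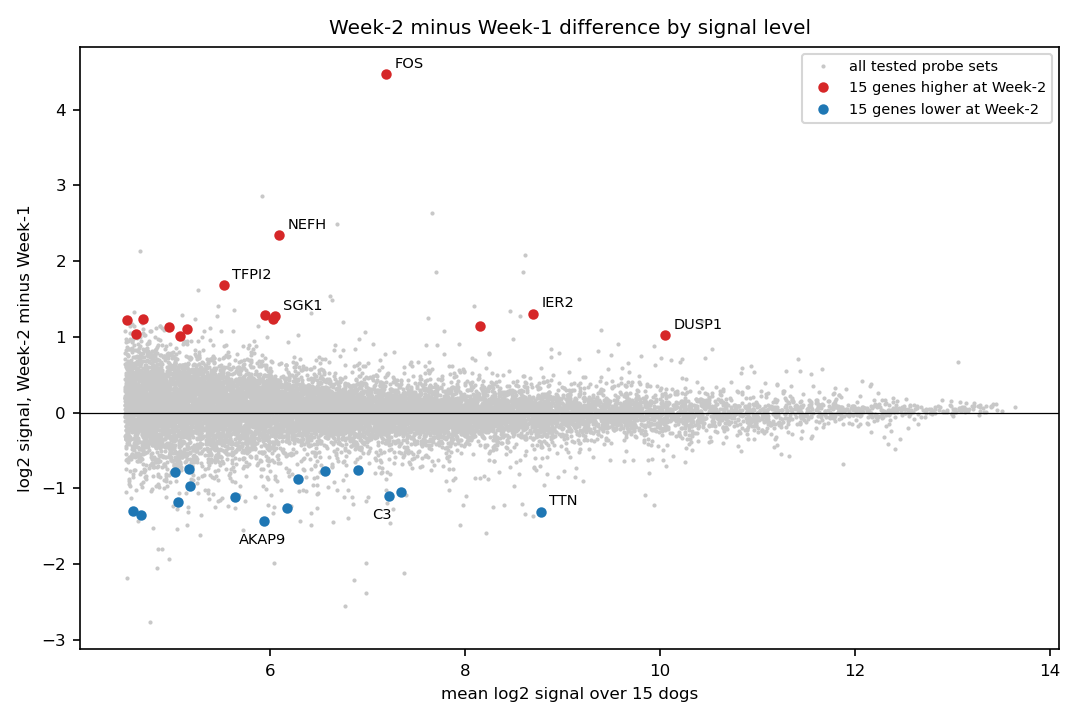
Each grey dot is a tested probe set, with its mean log2 signal over the 15 dogs on the horizontal axis and its log2 difference, Week-2 minus Week-1, on the vertical axis. Red and blue dots mark the 15 higher and 15 lower genes with the largest differences among those with an unadjusted p under 0.01 and dogs that did not overlap, and FOS lies far above all other genes so marked, at 4.47.

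The largest difference among these genes belonged to FOS, which encodes a subunit of the AP-1 transcription factor. Its log2 signal was 6.52, 5.87 and 4.90 in Week-1 dogs 1, 2 and 3 and 11.04, 8.14 and 11.51 in Week-2 dogs 1, 2 and 3. Week-2 dogs 1 and 3 stood far above every Week-1 dog, and Week-2 dog 2 stood between. The difference was 4.47 (SE 1.32, adjusted p = 0.76 in limma), a 22.1-fold higher signal with a 95% interval from 3.12-fold to 157-fold. The 3 isolations of a dog gave like values, from 10.86 to 11.31 in Week-2 dog 1, from 7.75 to 8.42 in Week-2 dog 2 and from 11.38 to 11.71 in Week-2 dog 3. FOS also ranged widely within the other groups, from 3.25 to 8.42 in the unpaced dogs, from 3.86 to 8.60 at Day-3 and from 6.21 to 8.98 at End-stage.

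Other immediate early genes were higher at Week-2 as well. Of the 36 genes of the list, 9 were tested, all 9 had a positive difference, and 7 had an unadjusted p under 0.05. Over all 5278 genes tested, 152 (2.88%) were higher and 129 (2.44%) lower at Week-2 at that p, the background for every list count. The median difference of the list was 1.14, against 0.00581 over all genes. The list was drawn up with earlier results of these data known. Of its members, 6 did not overlap between the groups, against 6.01% of all tested probe sets that were higher without overlap. JUNB, a partner of FOS in AP-1, had a log2 signal of 7.86, 7.97 and 7.91 at Week-1 and of 10.25, 8.28 and 8.63 at Week-2. The Week-1 dogs lay close together and Week-2 dog 1 was the high one. Its difference was 1.14 (SE 0.359), and 0.55 without Week-2 dog 1. IER2, a nuclear early response protein, had a log2 signal of 8.35, 8.27 and 8.81 at Week-1 and of 10.44, 8.98 and 9.93 at Week-2. Its difference was 1.31 (SE 0.42). DUSP1, a phosphatase that switches off MAP kinases, had a log2 signal of 10.04, 10.11 and 9.31 at Week-1 and of 11.03, 10.27 and 11.23 at Week-2. Here too Week-2 dog 2 was the lowest of its group, and the difference was 1.02 (SE 0.344). The transcription factor KLF4 differed by 0.77 (SE 0.288), and its groups did not overlap.

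The remaining 4 members were less even. CCN1, a secreted matricellular protein, differed by 1.25 (SE 0.517), and by 0.5 without Week-2 dog 3, which stood at 9.99 against 7.80 and 7.70 in the other Week-2 dogs. The nuclear receptor NR4A1 had a log2 signal between 6.84 and 7.08 at Week-1 and of 9.67, 6.49 and 10.30 at Week-2. Week-2 dog 2 was thus below every Week-1 dog for NR4A1 while the other Week-2 dogs were far above, and the difference was 1.86 (SE 0.791). Its relative NR4A2 differed by 0.60 (SE 0.449) and the stress phosphatase subunit PPP1R15A by 0.36 (SE 0.51), both with overlapping groups. The mean level of the 9 genes, relative to the mean of all genes tested, was -0.32, -0.46 and -0.42 in the Week-1 dogs and 1.44, -0.07 and 1.64 in the Week-2 dogs. It was at most 0.48 in the End-stage dogs, 0.36 in the Day-3 dogs and 0.19 in the unpaced dogs. Week-2 dogs 1 and 3 thus stood above every other dog of the series, and Week-2 dog 2 lay inside the range of the others. The number of members with an unadjusted p under 0.05 was 6 without Week-1 dog 1, 4 without Week-1 dog 2, 5 without Week-1 dog 3, 5 without Week-2 dog 1, 8 without Week-2 dog 2 and 4 without Week-2 dog 3.

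**Figure D2:**
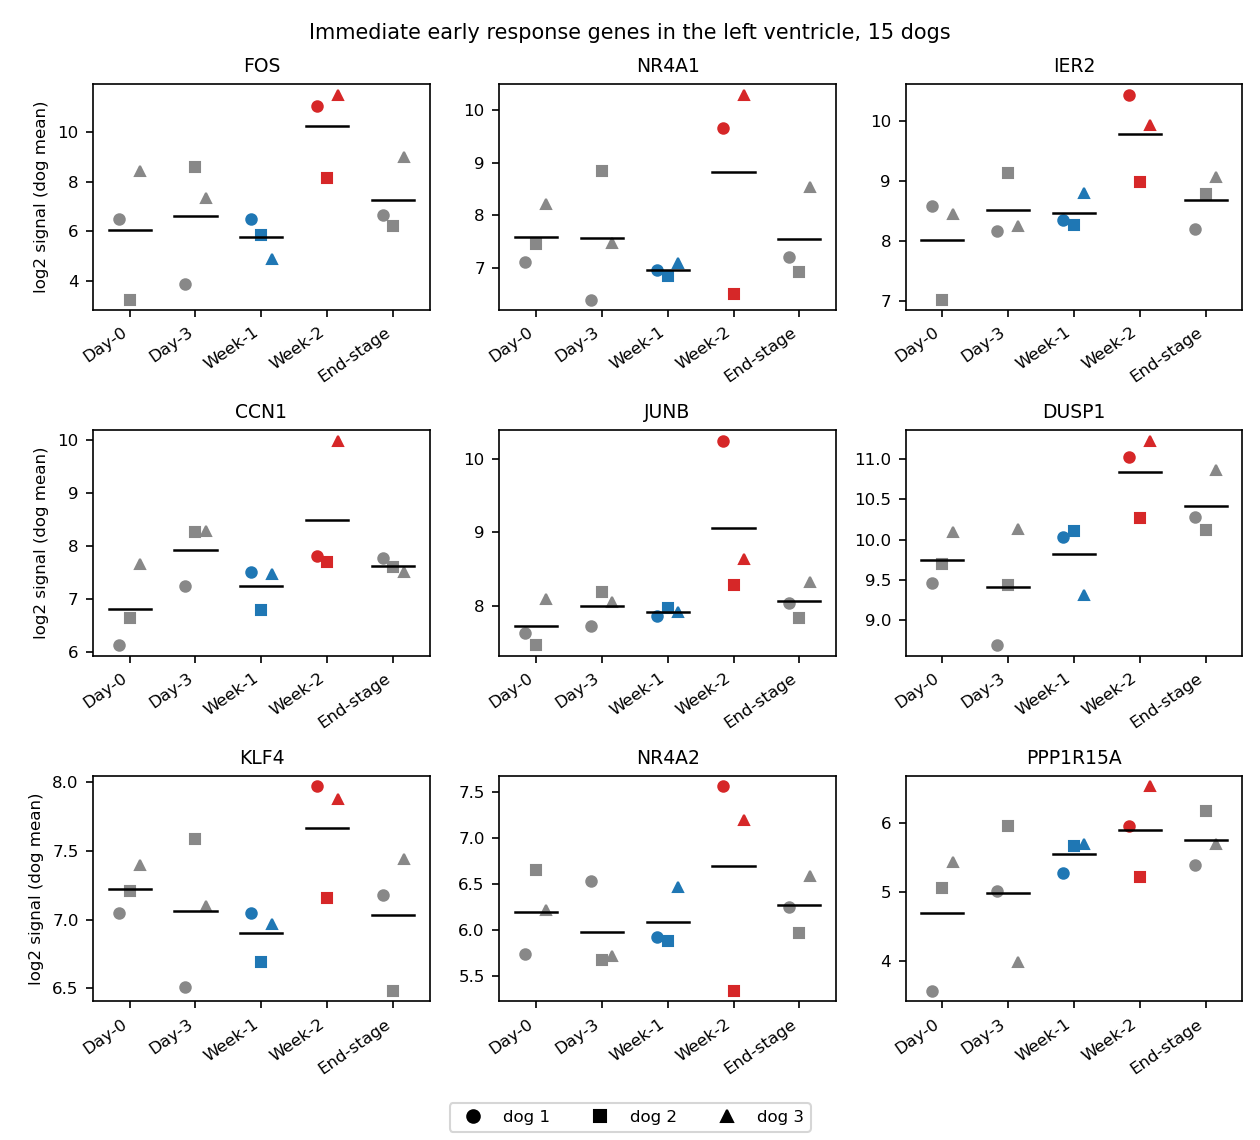
The 9 immediate early genes tested, with the mean log2 signal of each dog on the vertical axis and the 5 groups on the horizontal axis (circle, dog 1; square, dog 2; triangle, dog 3; line, group mean). Week-2 dogs 1 and 3, in red, lie high for FOS, NR4A1, IER2 and DUSP1, while Week-2 dog 2 lies near the Week-1 dogs, in blue, for most genes.

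All 8 tested endothelial markers, genes of the vessel lining, had a higher mean signal at Week-2, although the size depended on the scaling. VWF, the clotting protein stored in endothelial cells, had a log2 signal of 10.19, 10.22 and 9.82 at Week-1 and of 10.87, 10.91 and 10.62 at Week-2. The groups did not overlap, and the Week-1 mean was the lowest of the 5 groups. The difference was 0.72 (SE 0.136, adjusted p = 0.692 in limma), a 1.65-fold higher signal, and a second probe set of VWF gave 0.67. TFPI2, a secreted inhibitor of serine proteases, was counted with the complement and coagulation genes and not among the endothelial markers. It had a log2 signal of 5.39, 3.54 and 4.68 at Week-1 and of 6.58, 6.04 and 6.02 at Week-2. Its difference was 1.68 (SE 0.397, 95% interval from 0.83 to 2.53), and between 1.18 without Week-1 dog 2 and 2.11 without Week-1 dog 1. The low value of Week-1 dog 2 is a mean of isolations at 1.21, 4.04 and 5.36. The group means of TFPI2 were 5.70 in unpaced dogs, 5.43 at Day-3 and 5.72 at End-stage, so its Week-1 mean was the lowest and its Week-2 mean the highest of the 5. The adhesion molecule ICAM2 stood at 7.0, 6.03 and 7.01 at Week-1 and at 7.41, 7.29 and 7.31 at Week-2, a difference of 0.66 (SE 0.245) that was 0.33 without Week-1 dog 2. The receptor TEK, which binds angiopoietins, differed by 0.31 (SE 0.208) without overlap. Of 20 endothelial markers, 8 were tested, all 8 had a positive difference and the median was 0.23. At an unadjusted p under 0.05, 2 of the 8 were higher, against 2.88% of all genes. With each array centred on its median signal, 6 of the 8 were above 0 and the median was 0.11. PECAM1 and AQP1, both bright, differed by 0.18 (SE 0.195) and 0.08 (SE 0.134). In bulk tissue, more endothelial cells and more RNA per cell cannot be told apart.

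**Figure D3:**
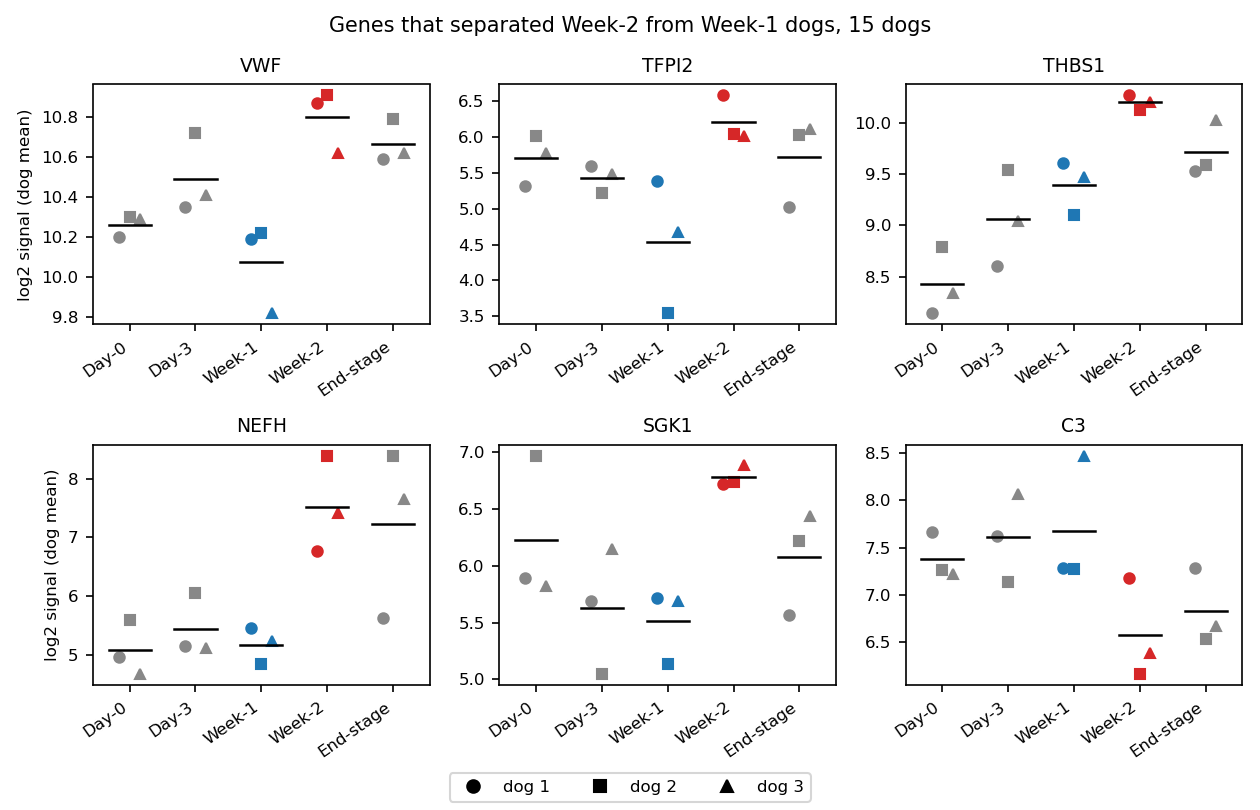
Mean log2 signal of each dog (vertical axis) in the 5 groups (horizontal axis) for VWF, TFPI2, THBS1, NEFH, SGK1 and C3, drawn as circle, square and triangle for dogs 1, 2 and 3 with a line at the group mean. The Week-2 dogs, in red, lie above the Week-1 dogs, in blue, in the first 5 panels and below them for C3, where Week-1 dog 3 is the highest dog.

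Of the listed matrix genes, THBS1, CILP and CCN1 had an unadjusted p under 0.05, and the fibrillar collagens named below did not. THBS1, a matricellular protein that activates TGF-β, had a log2 signal of 9.61, 9.10 and 9.47 at Week-1 and of 10.27, 10.13 and 10.21 at Week-2. Every Week-2 dog was above every Week-1 dog and above every dog of the other 3 groups, the highest of which reached 10.03. The difference was 0.81 (SE 0.226, 95% interval from 0.33 to 1.29), a 1.75-fold higher signal. The cartilage matrix protein CILP, which fibroblasts secrete in scarred heart muscle, stood at 7.09, 5.88 and 7.37 at Week-1 and at 7.69, 8.07 and 7.31 at Week-2. Its groups overlapped, and its difference of 0.91 (SE 0.34) was 0.46 without Week-1 dog 2. CCN2, a growth factor of fibrosis, was 10.57, 10.41 and 10.96 at Week-1 and 10.65, 11.48 and 12.30 at Week-2, a difference of 0.83 within the spread of the dogs (SE 0.506), and of 0.42 without Week-2 dog 3 and 1.25 without Week-2 dog 1. The collagens COL1A1, COL1A2 and COL3A1 differed by 0.12 (SE 0.534), -0.11 (SE 0.39) and -0.28 (SE 0.491). Week-1 dog 3 stood above the other 5 dogs for each of them, at 10.34, 11.41 and 10.26. Of 44 fibrillar matrix genes, 27 were tested, 17 were above 0 and 10 below. At an unadjusted p under 0.05, 3 were higher and 0 lower, against 2.88% and 2.44% of all genes. The median of 0.11 was -0.01 with median centring and 0.26 without Week-1 dog 3.

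Other secreted and signalling genes near the matrix differed in either direction. DKK3, a secreted glycoprotein of the Dickkopf family, stood at 9.42, 9.82 and 9.59 at Week-1 and at 10.19, 10.58 and 10.37 at Week-2, a difference of 0.77 (SE 0.253). All 3 of its probe sets were higher, by 0.70 to 1.08, each with an unadjusted p under 0.05. The hepatocyte growth factor receptor MET differed by 0.57 (SE 0.217), and by 0.32 without Week-1 dog 1. The fibroblast growth factor FGF2 differed by 0.51 (SE 0.199), and by 0.32 without Week-2 dog 3. Neither gene overlapped between the groups. TIMP3, an inhibitor of matrix proteases, differed by -0.50 (SE 0.193), and by -0.30 without Week-2 dog 1, and 1 of its 5 probe sets was above 0. The laminin chain LAMB1 differed by -0.48 (SE 0.193), by -0.30 without Week-1 dog 2, and by -0.27 on its second probe set.

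The chemokine CCL2, which draws monocytes into tissue, had a log2 signal of 6.76, 6.72 and 6.87 at Week-1 and of 7.6, 7.58 and 7.69 at Week-2. Both groups were tight and the difference was 0.84 (SE 0.234, 95% interval from 0.34 to 1.34), between 0.81 and 0.88 when any one of the 6 dogs was left out. Macrophage markers lay on both sides of 0. Of the 18 listed, 13 were tested, 6 were above 0 and 7 below, 0 reached an unadjusted p under 0.05 in either direction, and the median was -0.04. Of 12 inflammation and chemokine genes tested, CCL2 alone had an unadjusted p under 0.05.

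Genes of antigen presentation and the interferon response lay mostly above 0. Of 50 listed, 17 were tested, 12 were above 0 and the median was 0.31. At an unadjusted p under 0.05, 3 were higher and 0 lower, against 2.88% and 2.44% of all genes. The interferon-induced GTPase MX2 stood at 5.73, 5.69 and 5.82 at Week-1 and at 6.18, 6.21 and 6.14 at Week-2, a difference of 0.43 (SE 0.16). The immunoproteasome subunit PSMB8 differed by 0.58 (SE 0.225), and all 3 of its probe sets were higher, by 0.40 to 0.61. The class I histocompatibility gene DLA88 differed by 0.41 (SE 0.165) with overlapping groups, and by 0.23 without Week-1 dog 3. The peptide transporter TAP1 stood between 6.13 and 6.44 at Week-1 and between 6.51 and 6.93 at Week-2, a difference of 0.42 (SE 0.199). With each array centred on its median signal, 0 members of this list reached an unadjusted p under 0.05 and the median was 0.19.

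C3, the central component of complement, had a lower signal at Week-2. It stood at 7.29, 7.28 and 8.47 at Week-1 and at 7.18, 6.17 and 6.39 at Week-2 on one of its probe sets. The difference there was -1.10 (SE 0.344), and all 5 probe sets were lower, with differences from -1.27 to -0.43. Week-1 dog 3 was the high dog, and without it the difference was -0.71. The same dog stood out for fat cell and connective tissue markers. The adipokine ADIPOQ stood at 4.72, 6.24 and 8.58 at Week-1, and RBP4, a retinol carrier that fat cells secrete, at 6.69, 6.19 and 8.73. The 6 fat cell markers tested of 12 had a mean level, relative to all genes tested, of -1.05, -0.78 and 0.40 in the Week-1 dogs and between -1.41 and -0.60 in the Week-2 dogs. Their median difference of -0.84 was -0.09 without Week-1 dog 3 and -1.15 without Week-1 dog 1. ADIPOQ itself differed by -1.25 (SE 1.1), and by -2.15 without Week-1 dog 1. The 7 fibroblast markers tested had a mean level of 2.55, 2.54 and 3.45 in the Week-1 dogs and between 2.46 and 2.95 in the Week-2 dogs. The part of fat and connective tissue in the C3 difference was not tested.

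Sarcomere genes lay on both sides of 0, and their balance depended on the scaling and on single dogs. Of 46 sarcomere genes, 31 were tested, 16 were above 0 and 15 below, 0 reached an unadjusted p under 0.05 in either direction and the median was 0.00137. With median centring 6 were above 0, 2 were lower at that p and the median was -0.12. The number above 0 was 8 without Week-1 dog 1, and ranged from 4 without Week-2 dog 3 to 24 without Week-1 dog 2. The β-myosin heavy chain MYH7 stood at 13.16, 13.77 and 13.45 at Week-1 and at 13.15, 13.56 and 13.73 at Week-2, a difference of 0.02 (SE 0.227, 95% interval from -0.47 to 0.50). Cardiac troponin T (TNNT2) and cardiac actin (ACTC1) differed by 0.00 (SE 0.205) and -0.01 (SE 0.224), and both by -0.14 without Week-1 dog 1. The giant spring protein titin (TTN) differed on 1 probe set, where it stood at 9.55, 9.41 and 9.0 at Week-1 and at 8.92, 7.69 and 7.42 at Week-2. That difference was -1.31 (SE 0.438), and -1.01 without Week-2 dog 3. TTN has 17 tested probe sets, which ranged from -1.31 to 0.48 with a median of -0.57, and 1 of them had an unadjusted p under 0.05. The slow skeletal troponin TNNT1 was counted with the skeletal muscle markers and not with the sarcomere genes. It stood at 8.97, 9.19 and 8.39 at Week-1 and at 7.57, 7.93 and 7.44 at Week-2, a difference of -1.21 (SE 0.491). The other 2 skeletal muscle markers tested, ATP2A1 and MYLPF, lay above 0, at 0.10 and 0.16.

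Calcium cycling genes showed 1 difference at an unadjusted p under 0.05 among the 19 tested of 36. RYR2, the calcium release channel of the sarcoplasmic reticulum, stood at 11.06, 10.94 and 11.03 at Week-1 and at 10.61, 10.55 and 10.83 at Week-2. Every Week-2 dog was below every Week-1 dog, with a difference of -0.35 (SE 0.136), and the 4 probe sets ranged from -0.61 to -0.24. An unadjusted p under 0.05 was kept in 2 of the 6 fits that left out 1 dog. Triadin (TRDN), which anchors proteins to that channel, differed by -0.87 on 1 probe set (SE 0.245), while 4 of its 6 probe sets were above 0. The calcium pump ATP2A2 differed by 0.02 (SE 0.203) and the sodium-calcium exchanger SLC8A1 by 0.24 (SE 0.414), or by -0.12 and 0.57 without Week-1 dog 1. Sorcin (SRI), a small calcium sensor that binds RYR2, was higher by 0.20 (SE 0.0969) without overlap. AKAP9, a scaffold for protein kinase A, stood at 6.42, 6.11 and 6.81 at Week-1 and at 4.91, 4.48 and 5.65 at Week-2, a difference of -1.43 (SE 0.435), and its other 2 probe sets differed by -0.43 and -0.46. The phosphodiesterase PDE4D, which degrades cyclic AMP, differed by -0.61 (SE 0.275), and by -0.33 without Week-2 dog 2.

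Of the 33 heart failure genes listed, 16 were tested, 9 were above 0 and 7 below, and the median was 0.0107. THBS1 was the single higher one and RYR2 the single lower one at an unadjusted p under 0.05. CORIN, the protease that activates natriuretic peptides, differed by -0.31 (SE 0.248), skeletal actin (ACTA1) by -0.17 (SE 0.365) and the mechanical stress protein ANKRD1 by 0.24 (SE 0.289), all with overlapping dogs. The atrial light chain MYL7 was bright in these ventricular samples, between 10.01 and 11.48 at Week-1 and between 10.39 and 11.23 at Week-2, and differed by -0.15 (SE 0.396), and by 0.13 without Week-1 dog 1.

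Few energy metabolism genes reached an unadjusted p under 0.05. Of 79 genes of oxidative phosphorylation, 50 were tested, 27 were above 0 and 23 below, 0 reached that p and the median was 0.02. With median centring 5 of the 50 were above 0, 1 was lower at that p and the median was -0.11, and without Week-1 dog 1 there were 11 above 0. Of 30 genes of the citric acid cycle and pyruvate dehydrogenase, 23 were tested, 0 reached that p and the median was 0.04. The same held for the 23 glycolysis and glucose genes tested, with a median of -0.02. PDK4, the kinase that shuts off pyruvate dehydrogenase, stood at 11.69, 10.92 and 11.17 at Week-1 and at 11.43, 11.78 and 12.22 at Week-2, a difference of 0.55 within the spread of the dogs (SE 0.509).

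Single fatty acid genes differed in both directions. Of the 43 listed, 28 were tested, with a median of -0.02. At an unadjusted p under 0.05, 3 were higher and 2 lower, against 2.88% and 2.44% of all genes. With median centring the counts turned to 1 higher and 5 lower, with a median of -0.14. ACSL5, which couples fatty acids to coenzyme A, stood at 6.77, 6.82 and 6.91 at Week-1 and at 7.35, 7.39 and 7.11 at Week-2, a difference of 0.45 (SE 0.135, 95% interval from 0.16 to 0.74), against 0.16 on its second probe set. The fatty acid importer CD36 was higher by 0.39 (SE 0.166). ETFDH, which passes electrons from fatty acid oxidation to ubiquinone, was higher by 0.38 (SE 0.164), although its 5 probe sets ranged from -0.04 to 0.71. ECHS1, an enzyme of the oxidation spiral, differed by -0.34 (SE 0.149). Lipoprotein lipase (LPL), which frees fatty acids from circulating fat, stood at 9.79, 11.20 and 10.39 at Week-1 and at 9.13, 9.48 and 9.50 at Week-2. Its difference of -1.09 (SE 0.492) was -0.72 without Week-1 dog 2 and -1.43 without Week-1 dog 1. LPL is also one of the fat cell markers, whose levels are given above. The desaturase SCD, which makes monounsaturated fatty acids, stood at 9.52, 9.16 and 9.74 at Week-1 and at 8.90, 8.90 and 8.4 at Week-2. Its difference was -0.74 (SE 0.211), and the other 2 probe sets differed by -0.61 and 0.23.

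Most tested genes of RNA processing lay below 0. Of the 52 listed, 38 were tested, 32 were below 0 and the median was -0.12, but CLK1 alone had an unadjusted p under 0.05, against 2.44% of all genes lower at that p. With median centring the median was -0.24 and 6 members were lower at that p. CLK1, a kinase of splicing factors, stood at 8.63, 8.25 and 8.75 at Week-1 and at 7.81, 7.83 and 8.05 at Week-2, a difference of -0.64 (SE 0.216). The RNA-binding proteins HNRNPD, at -0.21 (SE 0.113), and HNRNPM, at -0.31 (SE 0.147), also did not overlap between the groups. Of 71 ribosome and translation genes tested of 89, RPS16 alone had an unadjusted p under 0.05, and the median was 0.02. RPS16, a protein of the small ribosomal subunit, has 7 tested probe sets, of which 3 were higher by 0.55 to 0.71 and 4 lay between -0.22 and 0.07. Ribosomal protein genes have many near-identical copies, so this value is uncertain.

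Single genes of cell maintenance differed at an unadjusted p under 0.05. MAP1LC3A, a protein of the autophagosome membrane, stood at 11.27, 11.47 and 11.36 at Week-1 and at 10.92, 11.04 and 10.78 at Week-2, a difference of -0.45 (SE 0.108, 95% interval from -0.69 to -0.22), with both probe sets lower at an unadjusted p under 0.05. ATG9A, the membrane protein that seeds autophagosomes, was higher by 0.44 (SE 0.184), and the lysosomal protein LAMP2 by 0.34 (SE 0.149), or 0.17 without Week-1 dog 2. GCLM, which supplies the first step of glutathione synthesis, differed by -0.65 (SE 0.244), and thioredoxin (TXN) was higher by 0.37 (SE 0.154). The mitochondrial ribosomal protein MRPS16 differed by -0.58 (SE 0.245), and by -0.38 without Week-1 dog 3, and was the single one of 49 tested with an unadjusted p under 0.05. Of 31 genes of protein folding in the endoplasmic reticulum, 20 were above 0, 0 had an unadjusted p under 0.05, and the median was 0.04. With median centring 8 were above 0, 1 was lower at that p and the median was -0.09.

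**Figure D4:**
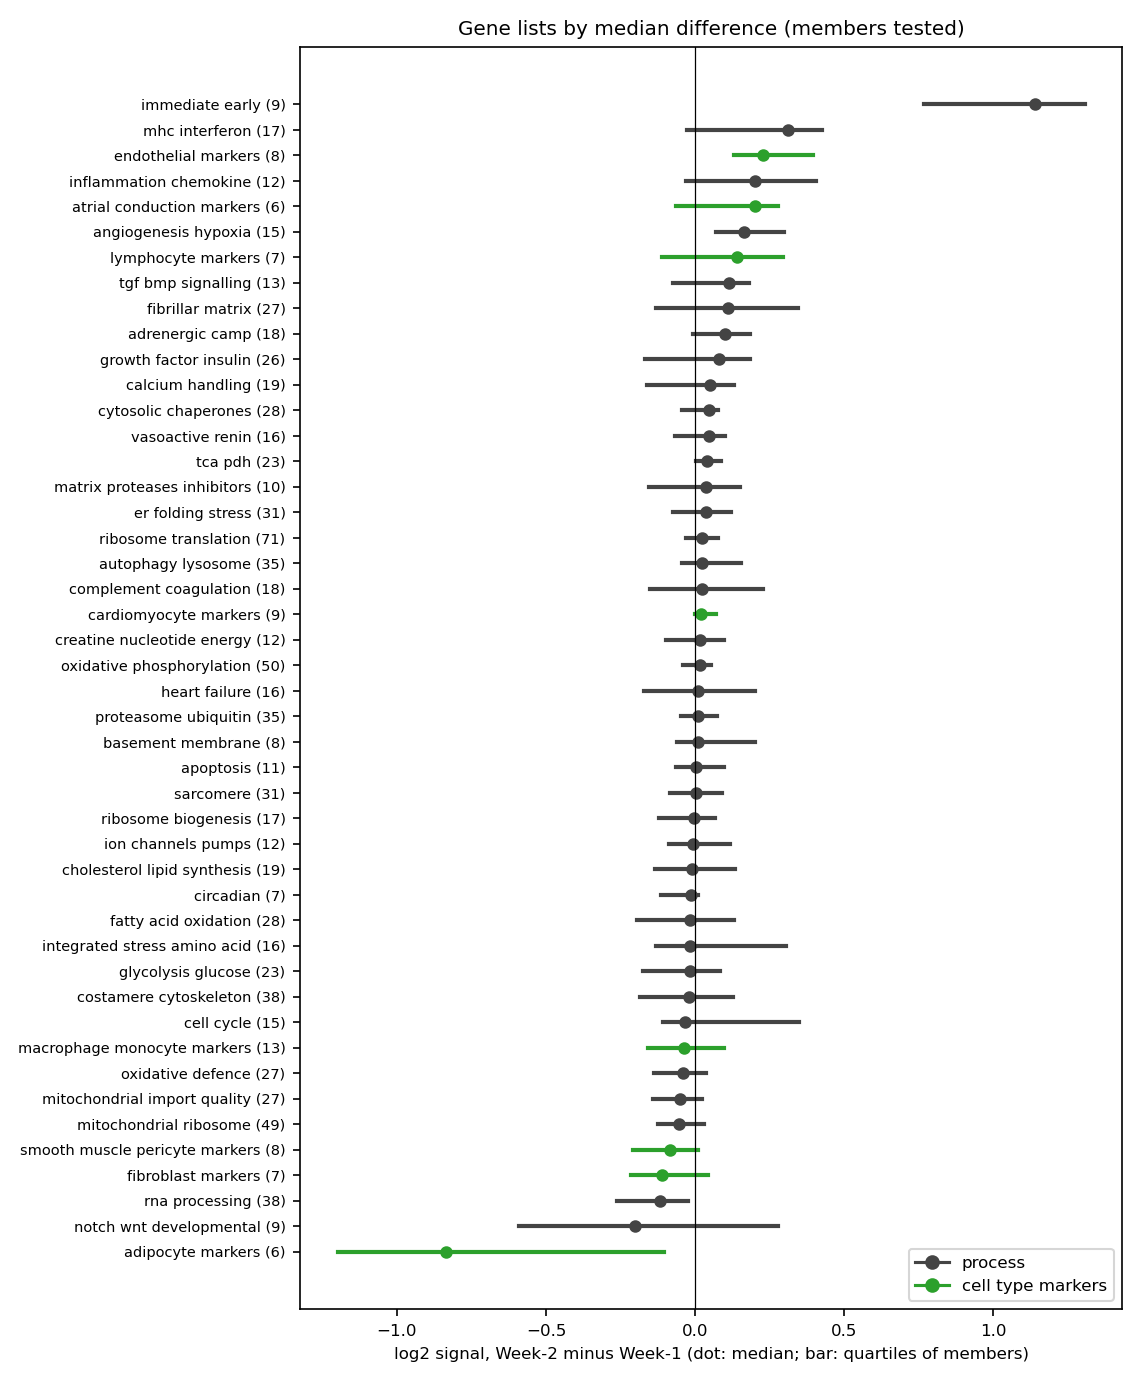
Median log2 difference, Week-2 minus Week-1, of each gene list with at least 5 tested members (dot) and the quartiles of its members (bar), with the number tested in brackets; cell type markers are green. The immediate early list lies at 1.14 and the fat cell markers at -0.84, while all other lists drawn lie between -0.20 and 0.31.

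Several of the most separated genes were not described above. PDIA5, a disulfide isomerase of the endoplasmic reticulum, had the smallest p of the probe sets with 1 gene symbol and was singled out for that after its values were seen. This probe set of PDIA5 was not among those counted above for protein folding in the endoplasmic reticulum, 0 of which had an unadjusted p under 0.05. It stood at 7.69, 7.61 and 7.50 at Week-1 and at 8.34, 8.26 and 8.36 at Week-2, a difference of 0.72 (SE 0.128, adjusted p = 0.692 in limma), and its 3 probe sets ranged from 0.32 to 0.72. The group means of PDIA5 were 7.99 in unpaced dogs, 8.26 at Day-3 and 8.19 at End-stage, so the Week-1 mean was the lowest of the 5. NEFH, the heavy neurofilament chain, stood at 5.45, 4.84 and 5.24 at Week-1 and at 6.77, 8.38 and 7.41 at Week-2. Its difference was 2.34 (SE 0.561, 95% interval from 1.15 to 3.54), a 5.08-fold higher signal, and the End-stage mean of 7.23 was also above the unpaced mean of 5.08. SGK1, a kinase induced by corticosteroids, stood at 5.72, 5.14 and 5.69 at Week-1 and at 6.72, 6.74 and 6.89 at Week-2, a difference of 1.27 (SE 0.332, 95% interval from 0.56 to 1.98), with 0.61 on its second probe set. DNAJC11, a mitochondrial inner membrane organising protein, stood at 4.73, 5.47 and 5.47 at Week-1 and at 6.72, 6.32 and 6.49 at Week-2, a difference of 1.29 (SE 0.261, 95% interval from 0.73 to 1.84). It was 1.04 without Week-1 dog 1, the lowest dog. The group means of DNAJC11 were 6.24 in unpaced dogs, 5.69 at Day-3, 5.22 at Week-1, 6.51 at Week-2 and 6.06 at End-stage. Its Week-1 mean was thus the lowest and its Week-2 mean the highest of the 5. For SGK1 too the Week-1 mean lay below that of the unpaced dogs, with a difference of -0.71.

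The rest of the 15 higher genes were dimmer, and apart from DYNC1I1 most of their dogs lay below a log2 signal of 6. NDNF, a secreted neurotrophic and endothelial factor, differed by 1.22 (SE 0.335) and LOC607207, an uncharacterised locus, by 1.23 (SE 0.387). The dynein chain DYNC1I1 differed by 1.24 (SE 0.4), by 1.55 without Week-1 dog 1, and by 0.65 on its second probe set. PARP4, FBXO38, S100PBP and ICA1 differed by 1.13, 1.11, 1.04 and 1.01, but other probe sets of these genes gave values down to -0.62, 0.01, -0.30 and -0.13. On the probe sets named here, Week-1 lay below the unpaced dogs for DYNC1I1, PARP4, FBXO38 and S100PBP. Week-1 minus Day-0 was -1.37, -1.48, -1.04 and -0.915 for these, and 0.12 for ICA1. Among the lower genes, the zinc finger protein MZF1 stood at 5.25, 5.16 and 5.11 at Week-1 and at 3.78, 3.84 and 3.85 at Week-2, a difference of -1.35 (SE 0.357, 95% interval from -2.11 to -0.59). The even dog means of MZF1 hide a wide spread of isolations, which ran from 4.32 to 5.69 at Week-1 and from 1.92 to 5.29 at Week-2 and overlapped. The motor protein KIF1B differed by -1.27 (SE 0.396) and RNF207, a ubiquitin ligase of heart muscle that binds potassium channels, by -1.18 (SE 0.301). For KIF1B the isolations of Week-1 dog 1 stood at 7.39, 3.39 and 7.59. Its difference ran from -2.08 to -0.55 when the processing or the dogs included were changed. The integrin chain ITGB6 stood at 7.78, 7.61 and 7.38 at Week-1 and at 6.65, 6.43 and 6.54 at Week-2, a difference of -1.05 (SE 0.352). ZNHIT1, RPL26L1 and NOL9, each with 1 probe set, differed by -0.76, -0.78 and -0.75, and NOL9 by -0.49 without Week-2 dog 1. RPL35, ZNHIT3, RAD23B and TRMT5 differed by -1.31, -1.12, -0.97 and -0.79 on 1 probe set each, while another probe set of each lay above 0. Without Week-1 dog 1, RPL35 differed by -1.67. The next gene outside the 15 lay at 0.89 on the higher side and at -0.74 on the lower side.

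The End-stage and Day-3 dogs, which by their labels are other animals than those of the 2 weeks compared, gave values for the same genes over a longer span of pacing. Their difference was fitted in the same model, so the estimate of the spread is common to both, and the arrays of End-stage dog 1 are those that Week-1 dog 1 resembled. Here too 0 of 14302 probe sets had an adjusted p under 0.05 in limma, and 1.89% were higher and 2.24% lower at End-stage at an unadjusted p under 0.05. Of the 15 genes higher at Week-2, 10 were also higher at End-stage than at Day-3, and the median difference was 0.16. NEFH, with a difference of 1.78 (SE 0.561), and DUSP1, with 1.00 (SE 0.344), had an unadjusted p under 0.05. DYNC1I1 had the opposite sign, with -0.87 (SE 0.4). Of the 15 genes lower at Week-2, 5 were also lower at End-stage, and the median was 0.33. C3 differed by -0.78 (SE 0.344) in the same direction, while MZF1, with 1.18 (SE 0.357), and RPL35, with 1.12 (SE 0.409), had the opposite sign. Outside these 30 genes, THBS1 differed between End-stage and Day-3 by 0.65 (SE 0.226) and CILP by 0.76 (SE 0.34). When each End-stage or Day-3 dog was left out in turn, NEFH ranged from 1.2 without End-stage dog 2 to 2.58 without End-stage dog 1, and MZF1 from 0.87 to 1.48. Of these 8 genes, NEFH and MZF1 alone kept an unadjusted p under 0.05 in all 6 such fits. DUSP1 ranged from 0.64 without Day-3 dog 1 to 1.35 without Day-3 dog 3, C3 from -1.02 to -0.55 and DYNC1I1 from -1.37 to -0.5. THBS1 ranged from 0.42 without Day-3 dog 1 to 0.89, CILP from 0.6 to 1.06 and RPL35 from 0.88 to 1.36. FOS differed by 0.68 (SE 1.32) and VWF by 0.17 (SE 0.136), both within the spread of the dogs.

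**Figure D5:**
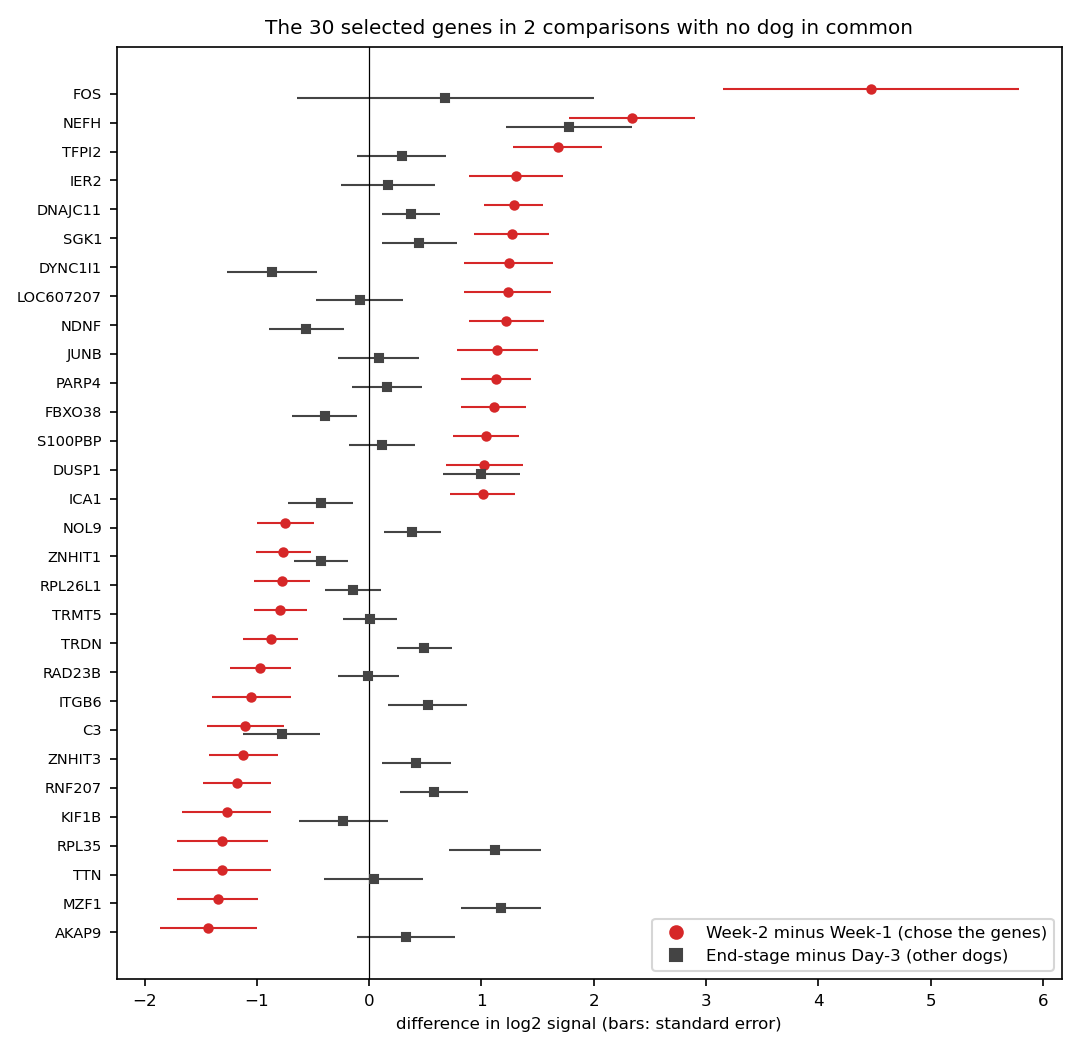
The 30 genes with the largest separated differences, with their log2 difference on the horizontal axis: Week-2 minus Week-1 (red circles, the values that chose the genes) and End-stage minus Day-3 (grey squares, other dogs), with bars of 1 standard error. NEFH, DUSP1 and C3 lie on the same side in both comparisons with an unadjusted p under 0.05 in each, which DUSP1 and C3 lose in End-stage minus Day-3 when some single dogs are left out, and MZF1, RPL35 and DYNC1I1 lie on opposite sides.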

How the data were processed

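The authors deposited 1 table of MAS5 signal intensity per probe set on a linear scale, computed with GCOS 1.4 and MAS5 per the submitters' processing notes. The values show that arrays had been scaled to a common target, since the mean after trimming 2% at either end lay from 150.02 to 150.026. Of 23913 probe sets, 77 controls were left out. Names came from the array's platform annotation, in which 10549 probe sets had 1 symbol, 138 had several and 13149 had none, and 10046 of the first matched the RefSeq gene table. Only the first kind were named, and 7674 of them (5278 genes) were tested. Gene models and builds behind the probe sets are not given in the sources used here, so no positions are printed.

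The log2 signals of the 3 isolations were averaged, which makes the animal the unit of replication. The dimmest 40%, those with a mean signal below 22.8, were left out. All 15 dogs entered 1 fit of 5 group means by limma (version 3.58.1, under R 4.3.3), moderated by eBayes with an intensity trend, with Benjamini-Hochberg adjustment of the two-sided p-values across 14302 probe sets. The fit was tested on simulated data. The number of dogs limits the precision; sequencing depth does not apply to arrays. The median SD between the isolations of a dog was 0.317 and that between dog means of a group was 0.253 on the log2 scale.

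Named genes were any past the adjusted threshold; the 15 highest and 15 lowest differences among probe sets with 1 symbol, an unadjusted p under 0.01 and no overlap of dogs; the heart failure list; and up to 4 members of each of 51 gene lists with the smallest p. The immediate early list is given in full, and PDIA5, PECAM1, AQP1, COL1A1 and COL1A2 were named after their values were seen. A list took 1 probe set per gene, the brightest. The comparison, members and lists were chosen with earlier results of these data known. A difference in the text is Week-2 minus Week-1 unless said otherwise. Alternatives covered normalisation, an offset, filters, the model, isolations and dogs left out; those for End-stage against Day-3 were added after seeing the data.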

Additional observations from a re-analysis of the deposited data

How the results depend on the processing

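The count of probe sets called, 0, stayed 0 in 19 of 22 alternatives, among them quantile normalisation, median centring, no filter and no intensity trend. It was 1 in the 6 compared dogs alone (a probe set with no gene symbol, log2 difference -2.12, adjusted p = 0.0279 in limma), and between 0 and 1 when each dog was left out, the 1 (another without a symbol, at -1.97, adjusted p = 0.00478) without Week-2 dog 1. It was 30, of which 19 were higher and 11 lower, when the 45 arrays were fitted with the dog as a random block and 1 common correlation, and FOS, IER2, DUSP1, NEFH, VWF and TTN were among them. That fit enters the 3 isolations of a dog as separate arrays, so isolations count partly as replicates. With 1 common correlation, a gene such as FOS, whose dogs lay further apart than their isolations, gets too small an error. Its adjusted p in limma was 0.0102 there and 0.76 in the fit of dog means. Median centring moved the median of all probe sets to -0.106, against 0.0172, and the share of higher ones at an unadjusted p under 0.05 from 54% to 17.9%. Counts at an unadjusted p under 0.05 ranged from 650 to 1070 of 14302 probe sets, and were 1343 of 23836 without the filter and 498 of 9535 with the lowest 60% left out. Dogs carry numbers in the labels. The deviations of Week-1 and Week-2 dogs of 1 number correlated at 0.161, 0.12 and 0.052, and those of different numbers between -0.115 and -0.023. Deviations from a group mean sum to 0 over its 3 dogs. Where dogs of 1 number correlate positively, those of different numbers are therefore pushed below 0, and this contrast is partly built in. All 3 Week-1 dogs were closest to the Week-2 dog of their own number. The main fit did not use the numbers, and whether they pair the dogs was not tested. With the dog number as a replicate block the count was 0 in the fit of 15 dogs and 0 in that of 6. In these fits 1070 and 940 probe sets had an unadjusted p under 0.05, and the smallest adjusted p in limma was 0.188 and 0.196. Of the 30 largest genes, 17 kept an unadjusted p under 0.05 in each alternative that gave them a value. Of 867 list medians under alternatives, 65 moved by more than the spread between dogs. For End-stage against Day-3, 0 of the 30 genes were called in each of the 16 alternatives tried. At dim probe sets the isolations of a dog can lie far apart, as those of MZF1, TFPI2 and KIF1B do.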

Other observations

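Heart muscle markers followed the dog number in the labels in every group, a pattern noticed after the values were seen. The mean level of the 9 markers tested, relative to the mean of all genes tested, was lowest in dog 1 in 5 of 5 groups. It lay between 5.01 and 5.17 in the dogs numbered 1 and between 5.34 and 5.73 in the other 10 dogs. For 8 of the 9 markers, dog 1 was the lowest dog in each group. MYH7, for example, stood at 13.16 in Week-1 dog 1 and at 13.15 in Week-2 dog 1, and at 13.45 or above in the other Week-1 and Week-2 dogs. The ratio of 3′ to 5′ GAPDH probe sets, a sign of RNA quality that rises as RNA degrades, lay between 0.88 and 1.02 in all dogs. Dog 1 had the lowest ratio in 4 of the 5 groups. It was 0.932 in Day-0, 0.88 in Day-3, 0.89 in Week-2 and 0.923 in End-stage, and in Week-1 it was lowest in dog 2. The same ratio for actin went the other way in Day-0, Day-3 and Week-2, where dog 1 was the highest, at 0.227, 0.195 and 0.267. In Week-1 and End-stage, dog 3 had the highest actin ratio. The actin ratios, from 0.121 to 0.267, were far below 1 in every dog, so their use as a sign of RNA quality is uncertain here. With the dog number as a block, 0 probe sets were called, as without it. What the dogs of 1 number share is not given in the labels, and the part of RNA quality in the marker pattern was not tested.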
